A study of Homo sapiens with 3 samples.

Results

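H2373 mesothelioma cells come from a tumour of the pleura, malignant pleural mesothelioma (MPM), and the array of the untreated cells was 1 of 3 arrays in a study of Hoechst dyes. The other arrays held RNA of H2373 cells given 36 µM of the Hoechst dye H258 or H342 for 3 h, and they are not described here. All the arrays share this cell line, which the methods describe as grown in serum-supplemented medium, and it stands for 1 tumour. On the untreated array, 18851 genes had a probe that the annotation ties to 1 gene. The brightest probe stood for each gene, genes were ranked by that signal, and a gene was called expressed where the detection p-value of the probe, its comparison with the negative control beads of the same array, was under 0.01. By this rule 7745 of 18851 genes were expressed (41.1%). There was no replicate, so no error between arrays can be given, and signals of different probes differ in affinity as well as in RNA, so the ranks describe probe signals and not amounts of mRNA.

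Mesothelial cells line the pleura, the peritoneum and the pericardium. They arise from mesoderm and carry epithelial keratins together with mesenchymal vimentin, and this mixed character is kept in many mesotheliomas. Pathologists separate MPM from adenocarcinoma of the lung by mesothelial markers (calretinin, WT1, mesothelin) set against epithelial markers such as EPCAM and the lung factor NKX2-1. Loss of CDKN2A and MTAP on the short arm of chromosome 9, and of NF2, is frequent in this tumour.

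Signals ran between 73.7 and 61503 over 48798 probes, on a linear scale of mean bead intensity from which no background had been subtracted. Probes that were not detected had a median signal of 127, with the middle 90% between 106 and 193, which is the floor against which the following signals should be read. The expressed genes had a median signal of 958, with quartiles at 446 and 2449, and the brightest 1885 genes (the top 10.0% of all) began at a signal of 2545. Just inside the detection threshold were EMC2 and LIF (249.6 and 249.2) and just outside it SESN1 and ASAH2B (249.0 and 248.9), so 664 expressed genes with signals under 300 lay close to it. Olfactory receptor genes, which are used in the nose, were expressed for 7 of 379 (1.85%), with none over 571. Where an expressed gene had several probes, the second probe was expressed for 1710 of 3053 genes (56.0%), and where both were, the brighter one exceeded the other by a median of 1.84-fold and by at least 3.46-fold in the upper quartile of them.

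All 4 mesothelial markers were expressed, over a wide range. KRT7, a keratin of simple epithelia and mesothelium, had a signal of 5242 (rank 964). MSLN, which encodes the surface protein mesothelin, had a signal of 1533 (rank 2849). WT1, a zinc finger transcription factor of the mesothelial lineage, had 372 and 310 on its probes (rank 6371), both detected. CALB2, which encodes calretinin, had 282 on a probe detected at a detection p of 0.00395 (rank 7292) and 161 on the other, which was not detected. KRT7 alone was in the top 10%, MSLN was above the median of the expressed genes, and WT1 and CALB2 were below the lower quartile of the expressed genes. KRT7 and MSLN, with 1 probe each, and WT1, on its 2 probes, were thus detected, with CALB2 near the detection limit. These few markers do not by themselves establish the lineage, and the wider list that follows was expressed at about the share of all genes.

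Of 25 mesothelial genes, 11 were expressed (against 41.1% of all genes) and 4 were in the top 10%. The highest was EFEMP1 with a signal of 18388 (rank 199), which encodes the secreted glycoprotein fibulin-3. It was followed by CDH2 (16674, rank 227), the N-cadherin of mesothelial junctions, and by EZR (8188), which links actin to the membrane of microvilli. HEG1, which carries a glycan epitope used in mesothelioma diagnosis, had 1823, and the transcription factor BNC1 had 969 with 4 of its 5 probes expressed. GPM6A (284) and TBX18 (255) were within a narrow margin of the detection limit. The other 14 genes were not expressed, among them MUC16 (191), UPK3B (134), LRRN4 (126), ITLN1 (138), PDPN (125.4) and KRT5 (103).

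KRT7, KRT8 and KRT18, keratins of simple epithelia, were expressed, as were some keratins of other types, and most genes of epithelial junctions were not. Of 19 keratins, 6 were expressed (31.6%, against 41.1% of all genes). KRT80 (7404), KRT7 (5242), KRT10 (4719) and KRT8 (4232) were in the top 10%, KRT18, the partner of KRT8 in simple epithelia, had 895, and KRT23 had 302. KRT19 (210) and KRT20 (137), other keratins of simple epithelia, were not expressed, nor were the basal keratins KRT5 (103) and KRT14 (140). Of 23 genes of epithelial adhesion and polarity, 3 were expressed (13.0%, against 41.1% of all genes). CLDN1, a tight junction claudin, had 5413, the junctional scaffold TJP1 had 2531, and JUP, a plaque protein of desmosomes, had 290. CDH1, the epithelial cadherin, had a signal of 134, EPCAM 152, CLDN4 128, the splicing factor ESRP1 121 and GRHL2, a regulator of epithelial genes, 104, and none of these was detected.

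Mesenchymal genes were expressed for 21 of 30 members (70.0%, against 41.1% of all genes), with 9 in the top 10%. VIM, the vimentin filament protein, was the gene at rank 20 of the whole array, with signals of 55460 and 51517 on its probes. TPM2 (21259) and TPM1 (14473), tropomyosins of the actin filaments, CD44 (18631), a hyaluronan receptor, CDH2 (16674) and SPARC (9154), a matrix protein, followed. Smooth muscle type contractile genes were lower, with TAGLN at 3452, ACTA2 at 439 and MYL9 at 345. Among the transcription factors of the mesenchymal state, TWIST1 had 883, while ZEB2 (280), SNAI2 (275) and TWIST2 (256) were near the limit and ZEB1 (185) and SNAI1 (149) were not expressed. FN1, which encodes fibronectin, had 147, 122 and 109 on its 3 probes, none of them detected, and FAP, a protease of activated fibroblasts, had 120 and was not detected either.

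Markers of other cell types were mostly at the level of undetected probes. Over 109 such genes, 11 were expressed (10.1%, against 41.1% of all genes), 1 was in the top 10%, and the median signal was 132. Of 22 markers of lung epithelium and lung adenocarcinoma, MUC1 (640) and CLDN18 (300.1, with 1 of 4 probes expressed) were expressed, and NKX2-1 (128), NAPSA (129), SFTPB (138) and SCGB1A1 (101) were not. None of 13 squamous and basal markers was expressed. The 23 blood and immune markers held 1 expressed gene, CD68 with 2733, 816 and 285 on its probes, which encodes a lysosomal protein. PTPRC, the pan-leukocyte antigen CD45, had 118, CD3D had 142 and HBB had 117. Of 16 endothelial markers only EGFL7 (289) was expressed, and PECAM1 (243, with a detection p of 0.0119), CDH5 (121) and VWF (107) were not. The 16 hepatocyte markers held FGA (707), CPS1 (315) and FGB (276), while ALB (131) and APOA1 (108) were not expressed. DLL3 (313) and NCAM1 (261) of 12 neuroendocrine markers and MITF (482) and EDNRB (280.2) of 7 melanocyte markers completed the list. In the plot of lineage genes these lists keep to the left of the detection limit apart from a few members.

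**Figure D1:**
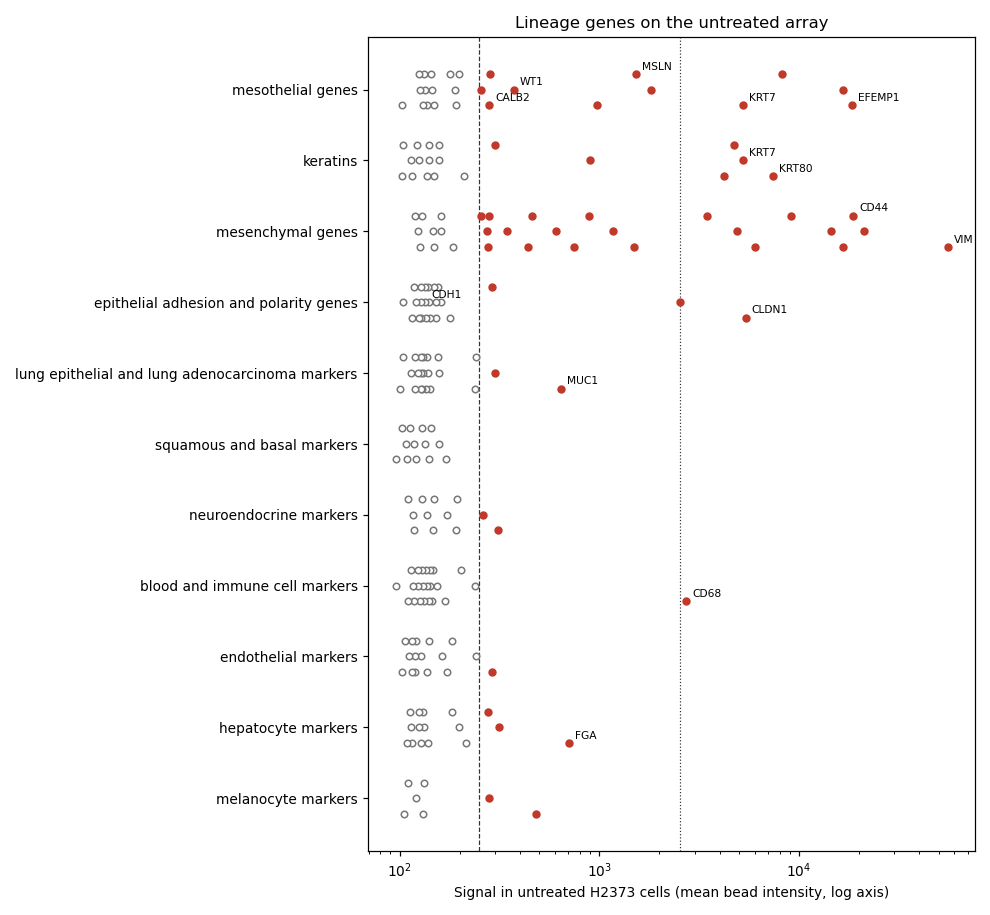
Signal of each gene of 11 lineage lists on the untreated array (log axis, mean bead intensity), with filled points for expressed and open points for not expressed genes, the dashed line at the detection limit and the dotted line at the start of the top 10%. Mesenchymal and mesothelial genes and keratins extend to the right of the dotted line, and among the markers of other cell types only CD68 (2733) does.

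Most genes of the first 20 ranks encoded ribosomal or cytoskeletal proteins. Ribosomal protein genes made up 10 of the first 20 ranks, 29 of the first 50 and 51 of the first 200, and RPLP1, a protein of the ribosomal stalk, was at rank 1 (61503). Of 69 genes of cytosolic ribosomal proteins, 68 were expressed and 63 were in the top 10%. RPL10 was the exception, with 142 and 126 on its probes. Cytoskeletal genes in the first 20 ranks were ACTG1 (61022) and ACTB (58612), the cytoplasmic actins, TUBA1B (57336), an alpha tubulin, and VIM. B2M (58253), the light chain of MHC class I, ANXA2 (56327), a membrane-binding annexin, OAZ1 (57690), the antizyme that restrains polyamine synthesis, and TPT1 (56567), a translationally controlled protein, were also there. LAIR1 (58990, with 144 on its other probe) and CLEC2D (55761, with 2691 and 133 on its others) completed the first 20 ranks, and their probes disagree. Of 37 genes of the cell cycle and proliferation, 32 were expressed (86.5%, against 41.1% of all genes) and 16 were in the top 10%, led by CDC20 (15883) and UBE2C (13203), which act in mitotic exit, MCM7 (12514), a subunit of the replicative helicase, and CCND1 (10601), the cyclin D1 of G1 phase. MKI67, the gene of the Ki-67 antigen, had 461. The list also holds cell cycle inhibitors, of which CDKN1A (1348) and CDKN1B (1045) were expressed. The members not expressed were MYBL2 (166), CDKN1C (166), CCND2 (144), E2F1 (133) and CCNE2 (108).

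Promoters give a feature that the ranking did not use. RefSeq promoters, 250 bases before and 50 bases after the annotated gene start on GRCh38.p14, were found for 14870 of the 18851 genes, and the annotated start need not be the start used in these cells. Most human promoters lie in CpG islands and lack a TATA box, whereas TATA boxes and CpG-poor sequence are typical of many genes confined to specialised cells. The 5 promoters below show these types in genes with very different signals. Capitals mark TATA boxes (TATAAA), and, except in MT2A, GC boxes (GGGCGG) and CCAAT boxes (CCAAT), each on either strand. In MT2A they mark the TATA box and matches of TGCNCNC, the core letters of the metal response element, on either strand. The first is RPLP1 (chr15:69452568-69452867, plus strand, signal 61503), with 2 CCAAT boxes and 1 GC box, no TATA box and 23 CpG dinucleotides. WT1 (chr11:32435490-32435789, minus strand, signal 372) has 1 GC box, 21 CpG dinucleotides, a GC content of 70.0% and a ratio of observed over expected CpG of 0.575. MT2A (chr16:56608334-56608633, plus strand, signal 36674) has a TATA box, 37 CpG dinucleotides and 8 matches of the metal response element. CXCL8 (chr4:73740319-73740618, plus strand, signal 6591) has a TATA box, 4 CpG dinucleotides and a GC content of 39.3%. ALB (chr4:73404037-73404336, plus strand, signal 131, not expressed) has 2 CCAAT boxes and 4 CpG dinucleotides.
RPLP1: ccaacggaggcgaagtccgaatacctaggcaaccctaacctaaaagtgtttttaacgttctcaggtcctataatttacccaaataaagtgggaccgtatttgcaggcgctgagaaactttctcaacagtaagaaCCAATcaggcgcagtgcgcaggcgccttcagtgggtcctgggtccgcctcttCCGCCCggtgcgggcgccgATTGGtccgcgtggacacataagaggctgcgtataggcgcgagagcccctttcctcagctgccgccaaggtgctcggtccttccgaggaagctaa
WT1: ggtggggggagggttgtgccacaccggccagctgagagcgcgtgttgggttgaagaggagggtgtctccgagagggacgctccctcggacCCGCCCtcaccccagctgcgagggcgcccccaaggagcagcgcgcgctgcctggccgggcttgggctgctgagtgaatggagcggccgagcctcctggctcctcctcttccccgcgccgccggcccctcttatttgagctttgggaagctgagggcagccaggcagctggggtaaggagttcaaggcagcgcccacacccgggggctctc
MT2A: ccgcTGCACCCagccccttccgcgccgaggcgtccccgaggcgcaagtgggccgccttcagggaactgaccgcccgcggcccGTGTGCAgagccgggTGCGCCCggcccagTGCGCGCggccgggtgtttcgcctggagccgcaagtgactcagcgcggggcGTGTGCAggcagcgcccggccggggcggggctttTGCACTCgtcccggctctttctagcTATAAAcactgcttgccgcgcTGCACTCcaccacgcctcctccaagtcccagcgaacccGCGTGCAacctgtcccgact
CXCL8: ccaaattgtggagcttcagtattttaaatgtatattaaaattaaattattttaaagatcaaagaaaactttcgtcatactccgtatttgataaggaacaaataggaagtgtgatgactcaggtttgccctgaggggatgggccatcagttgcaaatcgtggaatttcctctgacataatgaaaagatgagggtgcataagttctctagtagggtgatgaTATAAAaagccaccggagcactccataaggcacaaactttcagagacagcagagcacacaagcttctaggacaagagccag
ALB: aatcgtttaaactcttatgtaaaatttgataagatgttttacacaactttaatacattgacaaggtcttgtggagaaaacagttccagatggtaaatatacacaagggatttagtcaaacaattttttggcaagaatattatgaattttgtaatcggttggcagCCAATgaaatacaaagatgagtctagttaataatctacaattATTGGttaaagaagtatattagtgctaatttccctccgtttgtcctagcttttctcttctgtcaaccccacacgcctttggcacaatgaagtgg

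Expressed genes had more CpG-rich promoters than genes that were not expressed. The GC content averaged 64.8% ± 9.62 (SD over 6515 promoters) in expressed genes and 58.3% ± 12.9 (SD over 8355 promoters) in genes not expressed. The median ratio of observed over expected CpG was 0.862 in expressed genes and 0.572 in genes not expressed. A ratio over 0.6, a common bound for a CpG island, was met by 87.5% of expressed genes and 48.3% of genes not expressed. Turned round, 5702 of 9734 genes with a ratio over 0.6 were expressed (58.6%), against 813 of 5136 genes at or under it (15.8%). These are descriptions over genes of 1 array, and genes are not independent replicates.

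Motifs were counted as letters on either strand, and a match is not a bound site. GC content differed between expressed and not expressed genes (64.8% and 58.3% on average), and the shares below were not matched for it. Whether the motif differences go beyond base composition was not tested. TATAAA was in 5.39% of promoters of expressed genes and 12.6% of those not expressed (9.45% of all 14870). GGGCGG was in 71.9% of expressed and 47.2% of not expressed genes (58.0% of all). CCGGAAG, the core of sites for ETS factors, was in 21.7% of expressed and 8.11% of not expressed genes (14.05% of all), AAGATGGCG, letters of a YY1 site, in 4.65% and 1.33% (2.78% of all), and GCGCATGCG, letters of an NRF1 site, in 4.28% and 1.604% (2.78% of all). CCAAT differed little, with 38.0% of expressed and 35.6% of not expressed genes (36.7% of all). TGACTCA, the AP-1 site, was less frequent in expressed genes, 3.07% against 4.40% in genes not expressed (3.82% of all). Along the ranks, cut into 10 groups of equal size, the median CpG ratio was 0.878 in the group with the highest signals and 0.370 in the group with the lowest. The share with a TATA box was lowest in group 4 from the top (4.51%), with 6.52% in the highest group and 16.1% in the lowest.

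**Figure D2:**
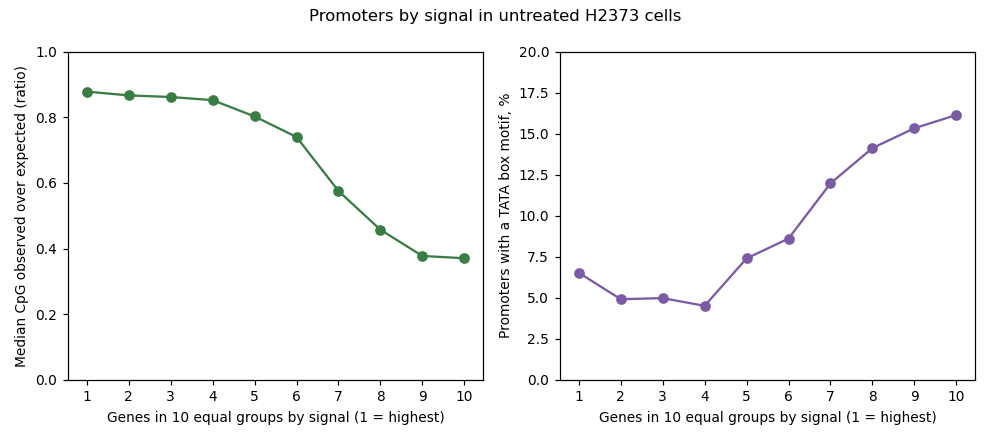
Median CpG ratio (left) and share of promoters with TATAAA on either strand (right) for 14870 genes in 10 groups of equal size by signal, 1 being the highest. The CpG ratio is 0.878 in group 1 and 0.370 in group 10, and the TATA share has its minimum of 4.51% in group 4.

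The CpG content also separated the genes with a TATA box. Of 467 promoters with both a TATA box and a CpG ratio over 0.6, 252 were expressed (54.0%, with 18.6% of the genes in the top 10%). Of 938 with a TATA box and a ratio at or under 0.6, 99 were expressed (10.6%, with 2.03% in the top 10%). MT2A is 1 of the 252 genes and CXCL8 1 of the 99.

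Of 13 tumour suppressor genes of mesothelioma, 9 were expressed and 1 was in the top 10%, DDX3X, an RNA helicase, at 7203 on a probe whose partner had 111 and was not detected. CUL1 (1420), a scaffold of ubiquitin ligases, SETD2 (1255), a histone methyltransferase, RASSF1 (697), LATS2 (668), a kinase of the Hippo pathway, and RB1 (479.7) were expressed. NF2, which encodes merlin, an upstream regulator of Hippo signalling, had 349 on 1 probe and 237, 170.4 and 168 on the other 3, which were not detected. SETDB1 had 328. LATS1 (115 and 113) was not detected. CDKN2A, which encodes the cell cycle inhibitors p16 and p14ARF, had 123, 122 and 118 on its 3 probes, and MTAP, an enzyme of methionine salvage that lies beside it, had 112, all at the median of undetected probes or below. An array of RNA does not show whether a gene is deleted, and copy number was not measured.

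The stretch around CDKN2A holds many interferon genes, and a smaller share of its genes was expressed than over the whole array. Between MLLT3 and MOB3B, 36 genes had a probe and 8 of them were expressed, against 41.1% of all genes, and in the order of the chromosome the expressed genes were FOCAD (671), HACD4 (509.8), KLHL9 (729), IFNA8 (542), CDKN2B (261), TUSC1 (482), CAAP1 (390.3) and IFT74 (613). Of 16 interferon genes, which are silent in most resting cells, IFNA8 alone was expressed, on 1 of 2 probes (542 and 113). CDKN2B, which encodes the inhibitor p15 and lies next to CDKN2A, had 261 at a detection p of 0.00791 on 1 probe and 142 and 112 on the others. The run from IFNE to ELAVL2 held MTAP, CDKN2A, CDKN2B-AS1, CDKN2B and DMRTA1, and no gene of it apart from CDKN2B was expressed. DMRTA1 had 126, and ELAVL2, which encodes an RNA-binding protein of neurons, had 114. Within the 20 genes other than interferons, 7 were expressed (CDKN2B among them), which for so few genes is near the 41.1% of all genes. The low count of the stretch thus lay with the interferon genes and is not a result about the other genes. The plot of this stretch shows every gene in order.

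**Figure D3:**
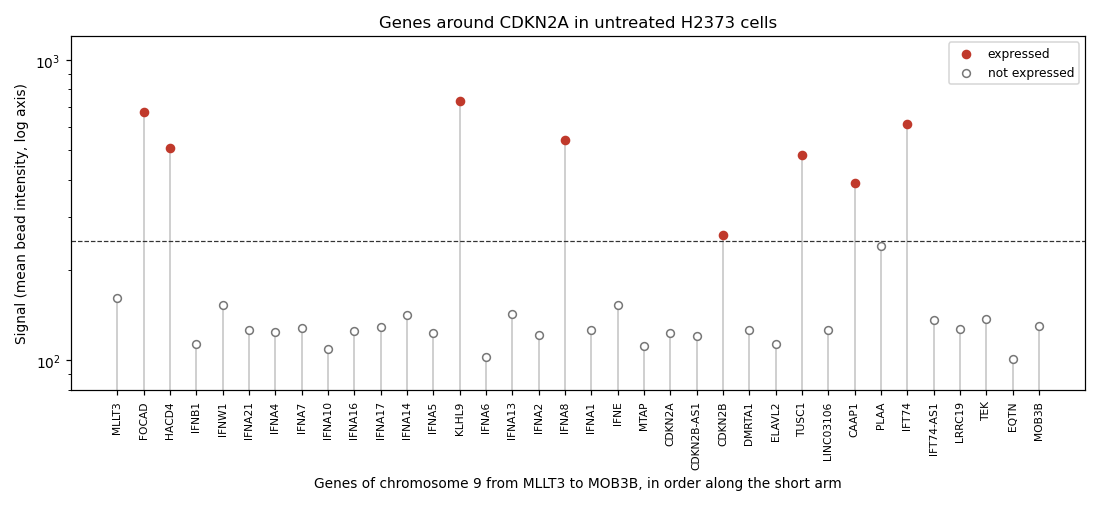
Signal on the untreated array (log axis, mean bead intensity) of 36 genes in order along the short arm of chromosome 9, with filled points for expressed genes and the dashed line at the detection limit. FOCAD, HACD4 and KLHL9 on the left and TUSC1, CAAP1 and IFT74 on the right are expressed, MTAP and CDKN2A lie at 112 and 123, and CDKN2B at 261 is close to the limit.

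Matrix genes were expressed for 88 of 189 members (46.6%, exact 95% interval 39.3 to 53.9, covering counting error only, against 41.1% of all genes), and 33 were in the top 10% (17.5%, against 10.0%). The fibrillar collagens, which form the tensile fibres of connective tissue, were expressed for 5 of 11 members. COL5A1 had 5846, COL1A1 1253, COL1A2 895, COL3A1 639 and COL5A2 353, and COL27A1 (249), COL11A1 (150.4), COL11A2 (135), COL2A1 (134), COL5A3 (119) and COL24A1 (109) were not expressed. Thus both chains of type I collagen and type III collagen were measured well above the floor but outside the top 10%. Of 19 other collagens, 6 were expressed, the highest being COL7A1 (1817), the collagen of anchoring fibrils, COL12A1 (1661), COL8A1 (1142) and COL6A1 (483).

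Basement membrane components were expressed for 11 of 21 members. COL4A1 (9218) and COL4A2 (1407), the chains of the common type IV collagen, and LAMC1 (7876), the laminin gamma chain of most laminins, were the leading members with LAMA5 (3452), AGRN (1897), the heparan sulfate proteoglycan agrin, and LAMA1 (1731). LAMB2 (247) and HSPG2 (171), which encodes perlecan, were not expressed. Glycoproteins and proteoglycans were expressed for 23 of 49 members. TGFBI, a secreted adhesion protein induced by TGF-beta, was at rank 55 with 48254. EFEMP1 (18388), CCN2 (10624) and CCN1 (3543), matricellular proteins, SPARC (9154), MATN2 (4839.9) and THBS1 (4031), the adhesive glycoprotein thrombospondin-1, followed. TNC had 482 and POSTN 1265, and the small proteoglycans DCN (152) and LUM (119) were not expressed.

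Enzymes that fold and crosslink collagen were expressed for 17 of 23 members (73.9%), with 8 in the top 10%. PLOD2, a lysyl hydroxylase of collagen telopeptides, had 22944 (rank 155), and P4HB (9203), a subunit of prolyl hydroxylase, PLOD1 (8291), COLGALT1 (5669), which adds galactose to collagen, and LOX (4726), the crosslinking oxidase, were in the top 10%. LOXL2 (114), LOXL3 and LOXL4 were not expressed. Hyaluronan genes were represented by the receptors CD44 (18631) and HMMR (3674), the enzymes of its sugar precursors, UGP2 (4071) and UGDH (1672), and the hyaluronidases HYAL3 (432) and HYAL2 (379), and the synthases HAS2 (167) and HAS3 (180.3), CEMIP (185) and TNFAIP6 (172) were not expressed.

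Of 31 matrix proteases and inhibitors, 12 were expressed. The inhibitors TIMP1 (7486) and TIMP2 (7445) and the cathepsins CTSL (5577) and CTSB (3079.7) were in the top 10% with HTRA1 (3367), a serine protease, and SERPINE2 (3139.9), a protease inhibitor. PLAU, the urokinase, had 1768 and its receptor PLAUR 916. Among the matrix metalloproteinases MMP3 alone was expressed, at 269, and MMP1 (113), MMP2 (201), MMP7 (151), MMP9 (115) and MMP14 (148) were not. Integrins, the receptors for matrix, were expressed for 8 of 25 members. ITGB1, the common beta chain, had 40204 and 15246 on its brightest probes (rank 72). The alpha chains ITGA3 (3319), ITGA5 (2978) and ITGAV (1603) were expressed, as were ITGB5 (4699), ITGA2 (389.5), ITGA11 (305) and ITGAE (3052), a chain known from intraepithelial lymphocytes. The epithelial pair ITGA6 (191) and ITGB4 (147) was not.

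Metabolic genes had the highest expressed share of the groups described apart from the controls, 217 of 298 (72.8%, exact 95% interval 67.4 to 77.8, counting error only, against 41.1% of all genes), and 105 were in the top 10% (35.2%, against 10.0%). In glucose uptake and glycolysis, 22 of 28 genes were expressed and 14 were in the top 10%. GAPDH (54230.5, rank 30), LDHA (50983, rank 47), which makes lactate, and ENO1 (50434) led, followed by TPI1 (29432), ALDOA (20186) and HK1 (17783), with SLC2A1, the glucose transporter GLUT1, at 3995. HK2 had 908, and the isoenzymes of other tissues, PKLR (139.9), HK3 (97.6), PGAM2 (128) and LDHC (152), were not detected. Gluconeogenesis and glycogen genes were expressed for 5 of 13 members, led by GBE1 (3904.5), the glycogen branching enzyme, and the defining FBP1 (133), PCK1 (139.98) and G6PC1 (121) were not expressed.

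In the pentose phosphate pathway 8 of 10 genes were expressed. TKT (15776) and TALDO1 (15592), its non-oxidative enzymes, PGD (4543) and PGLS (3854), of the oxidative branch, and PRPS1 (3363), which makes phosphoribosyl pyrophosphate, were in the top 10%, RPIA (2269), PRPS2 (2215) and RPE (927) were lower, and H6PD (217) and TKTL1 (143) were not expressed. The citric acid cycle and pyruvate oxidation had 25 of 29 genes expressed. MDH2 (26549.5), MDH1 (16184), CS (9734) and PDHB (5861) were the leading members. The 4 genes not expressed were the pyruvate dehydrogenase kinases PDK1 (174), PDK2 (134), PDK3 (170.1) and PDK4 (157), which restrain entry of pyruvate into the cycle.

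Lipid synthesis genes were expressed for 13 of 20 members in the fatty acid branch and 17 of 20 in the cholesterol branch. FASN (9027), the fatty acid synthase, SCD (6329.6), a desaturase, ACLY (5307), which supplies cytosolic acetyl-CoA, and ACSL4 (3408) were in the top 10%. No cholesterol gene was, although 17 were expressed, with SC5D (2481), ACAT2 (2375), HMGCS1 (2106) and INSIG1 (2008) leading and the regulator SREBF2 at 156, not expressed. Fatty acid oxidation had 15 of 22 genes expressed, led by the electron transfer flavoproteins ETFA (7169) and ETFB (5915), ACADVL (5199) and ECI2 (4771), while CPT1A (264), the gate to the mitochondrion, was near the limit.

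Amino acid and one-carbon metabolism had 25 of 32 genes expressed and 17 in the top 10%, with a median percentile of 90.8 among all genes. SHMT2 (13257) and PHGDH (13043), of serine and glycine synthesis, ASNS (12727), the asparagine synthetase, AHCY (10844), MAT2A (9895.5), PSAT1 (9476) and the transporter chains SLC7A5 (7881) and SLC3A2 (6139.5) were among them. GLUL (173), the glutamine synthetase, IDO1 (126) and TDO2 (125.3) were not expressed. Of 15 urea cycle and arginine genes, 7 were expressed. ODC1 at 21115 (rank 170) and SMS at 16127 (rank 239), enzymes of polyamine synthesis, were the brightest, followed by SLC7A1 (7042), an arginine transporter. ASS1, which makes argininosuccinate and whose loss marks a group of mesotheliomas, had 2371, 1744 and 219 on its probes. ASL, the next enzyme, had 227 and was not expressed, nor were OTC (109.9), ARG1 (124), ARG2 (146) or the nitric oxide synthases. Nucleotide synthesis had 21 of 25 genes expressed, led by RRM1 (11380.02), a subunit of ribonucleotide reductase, IMPDH2 (10894), PAICS (10677) and ADSL (9739). MTAP (112), UMPS (139), RRM2B (180.4) and DHODH (248) were below the threshold.

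Lists of detoxification genes differed in their expressed share. Antioxidant and glutathione genes were expressed for 34 of 44 members (77.3%, against 41.1% of all genes), 21 of them in the top 10%. FTL (54280.5), the ferritin light chain, TXN (54100), thioredoxin, SOD1 (31493) and PRDX1 (26814) led, and TXNRD1 (19445), NQO1 (13209), SRXN1 (4691) and GCLM (3175), which are targets of the transcription factor NRF2, were in the top 10% with NFE2L2 (4739), the gene of NRF2 itself. Of 30 genes for aldehydes and carbonyls, 20 were expressed (66.7%), below the 72.8% of the metabolic genes as a whole. ALDH9A1 (8143), PTGR1 (8104), AKR1C3 (7818), AKR7A2 (6173), AKR1C2 (5158) and AKR1B10 (3001) were in the top 10%, and AKR1C1 was not detected at 109. AKR1C genes are near-identical copies whose probes may share transcripts, so the split between them is uncertain, and the same holds for the metallothioneins. Of 10 metallothioneins, small proteins that bind zinc and copper, 5 were expressed, which for so few genes is near the 41.1% of all genes. MT2A had 36674 (rank 85), MT1E had 33178 on 1 probe and 162 on the other, MT1X had 4244, MT1G 1056 and MT1F 262. MT1M (132), MT1H (129), MT3 (119.9), MT1B (114) and MT4 (97.8) were not expressed. The promoter of MT2A printed above holds 8 matches of TGCNCNC, a pattern so short that it is in 59.99% of the 14870 promoters of genes on the array, but at 8 matches or more in 9 of them.

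**Figure D4:**
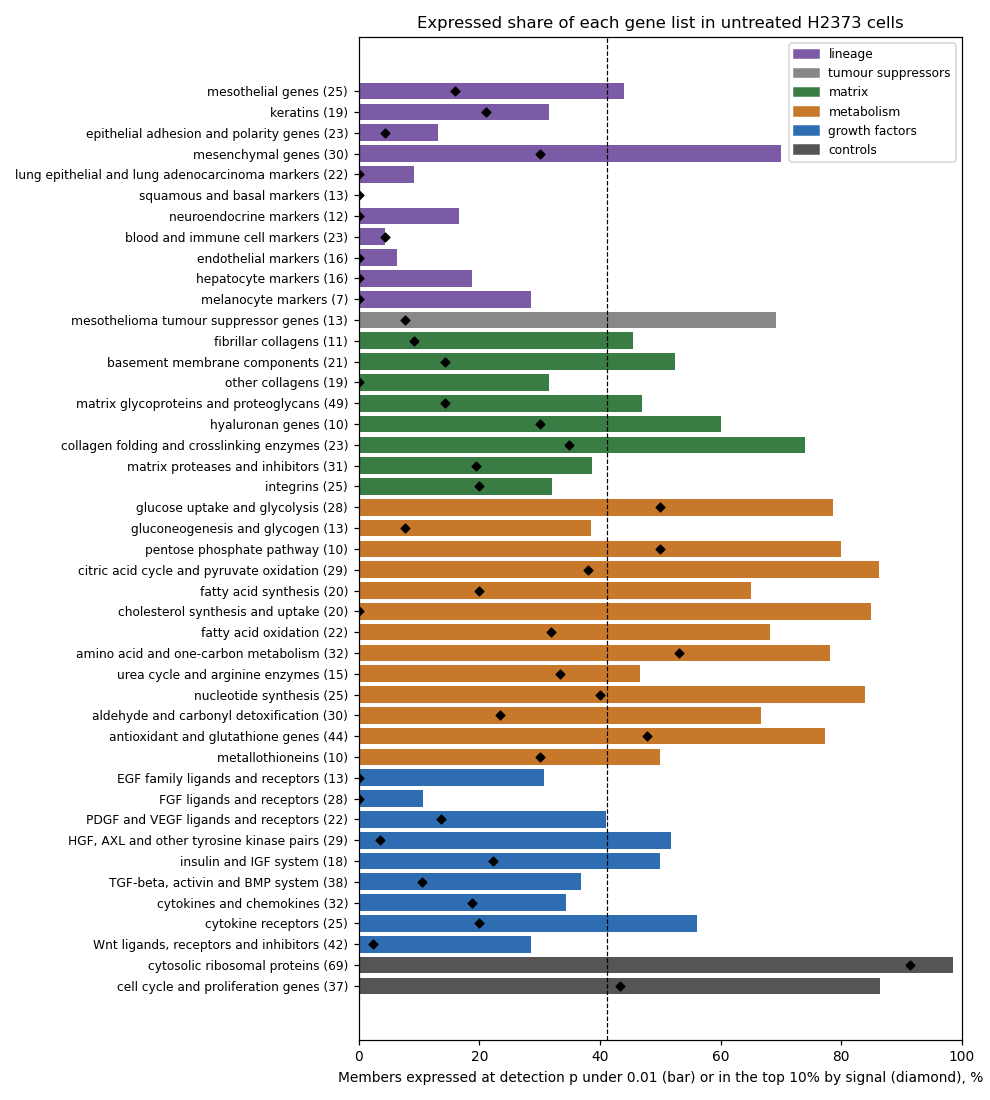
Share of genes expressed at a detection p under 0.01 (bars, %) and share in the top 10% by signal (diamonds, %) for each gene list, with the number of genes in brackets and the dashed line at the share of all genes expressed, 41.1%. Lists of metabolism and the controls pass the line for the most part, and lists of other cell types and FGF genes stay below it.

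Growth factor, cytokine and receptor genes were expressed for 91 of 247 members (36.8%, exact 95% interval 30.8 to 43.2, counting error only, against 41.1% of all genes), and 24 were in the top 10% (9.72%, against 10.0%), so as a whole they were at the level of all genes. In the EGF family, HBEGF (1258), a ligand, and EGFR (1020.2, 444, 177 and 98.5 on its probes), its receptor, were expressed with NRG1 (363) and ERBB2 (312). EGF (136), TGFA (134), EREG (163), ERBB3 (172) and ERBB4 (170.2) were not. Of 28 FGF genes, FGF2 (1482), the decoy receptor FGFRL1 (1539) and FGFR3 (385, with 143 on its other probe) were expressed, and FGFR1 (174), FGFR2 (122) and FGFR4 (141) were not.

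Angiogenic and platelet-derived factors were expressed for 9 of 22 members. The ligands were VEGFB (4701), VEGFC (2957), which acts on lymphatic vessels, PDGFC (1902), VEGFA (884), KITLG (544) and PDGFA (309.6), and the receptors were NRP1 (5579.9), a coreceptor of VEGF, PDGFRB (1175) and PDGFRA (276). PDGFRA was near the detection limit, and its other probe, at 107, was not detected. The endothelial receptors KDR (140.3), FLT1 (112) and FLT4 (127) were not expressed. In the group of HGF, AXL and other tyrosine kinases, 15 of 29 genes were expressed, and AXL (5991 and 3690.1 on its probes), a receptor kinase of mesenchymal cells, was the 1 member in the top 10%. Its ligand GAS6 had 1588 and 1552 on its brightest probes. BDNF (1366), EPHA2 (1225), PTN (1095), EFNB2 (1004) and MET (814) followed, and HGF, the ligand of MET, had 121 and was not expressed.

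The insulin and IGF system had 9 of 18 genes expressed. IGF2R (7159), which clears IGF2, the RNA-binding proteins IGF2BP2 (4382) and IGF2BP3 (2878), IGFBP3 (3423) and IGFBP7 (2359.6) led, and the signalling receptors IGF1R (139.2) and INSR (139) and the ligands IGF1 (131), IGF2 (139) and INS (135) were at the floor. Of 38 genes of the TGF-beta, activin and BMP system, 14 were expressed. FSTL1 (8259.6), BAMBI (3651), a pseudoreceptor, TGFBR2 (3198), the type II receptor, and FSTL3 (2861), an activin inhibitor, were in the top 10%. Of the TGF-beta ligands TGFB2 had 457, while TGFB1 (114) and TGFB3 (117) were not detected, nor was TGFBR1 (126).

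Cytokines were expressed for 11 of 32 members. MIF (29637), IL18 (8756), CCL2 (8520, rank 541), CXCL8 (6591 and 3673 on its probes), IL6 (5175) and IL32 (4006) were in the top 10%, and IL1A (633), IL1B (348), IL11 (315), CCL5 (302) and LIF (249.2) were lower. CXCL1 (147), CXCL12 (145) and TNF (106) were not expressed. Of 25 cytokine receptors, 14 were expressed, led by TNFRSF12A (10304), the receptor of TWEAK, IFNGR2 (6685.5), TNFRSF10B (3889.8), a death receptor for TRAIL, IL10RB (3062) and IL13RA1 (2652). Of 42 Wnt pathway genes, 12 were expressed. The secreted inhibitor DKK1 had 10027 on 1 probe and 335 on the other, DKK3 had 2344 and 1833 on its brightest probes, and FZD2 had 1944, LRP5 1059, WNT5B 847 and WNT5A 462.

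Ligands and their receptors were set side by side in 52 pairs. The pairs are a choice and do not hold every receptor of a ligand. NRP1 was set with VEGFA but not with VEGFB, and FGFR3 with FGF9 and FGF18 but not with FGF2. A gene expressed alone in its pair can therefore have an expressed partner outside that pair. In 9 pairs (17.3%) both members were expressed: GAS6 and AXL, VEGFA and NRP1, TGFB2 and TGFBR2, EFNA1 and EPHA2, HBEGF and EGFR, EFNB2 and EPHB4, PROS1 and TYRO3, and PDGFA and PDGFC with PDGFRA. The pairs with PDGFRA rested on 1 of its 2 probes, which was near the detection limit. In 15 pairs the ligand alone was expressed. These held the brightest ligands of the 52 pairs, CCL2 with CCR2 at 145, CXCL8 with CXCR1 at 124, IL6 with IL6R at 128, VEGFB with FLT1 at 112 and VEGFC with FLT4 at 127, as well as FGF2 with FGFR1 at 174. In 16 pairs the receptor alone was expressed, among them TNFSF10 (105) with TNFRSF10B, TGFB1 (114) with TGFBR2, PDGFB (160.1) with PDGFRB, HGF (121) with MET and TNF (106) with TNFRSF1A (1432). In 12 pairs neither was. Over the distinct genes, 23 of 51 ligands and 15 of 36 receptors were expressed, both close to the 41.1% of all genes, so the number of pairs with both members expressed is a description of these genes and not a result about pairing. Pairs share members, EGFR standing in 5 of them, so the counts are not independent.

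**Figure D5:**
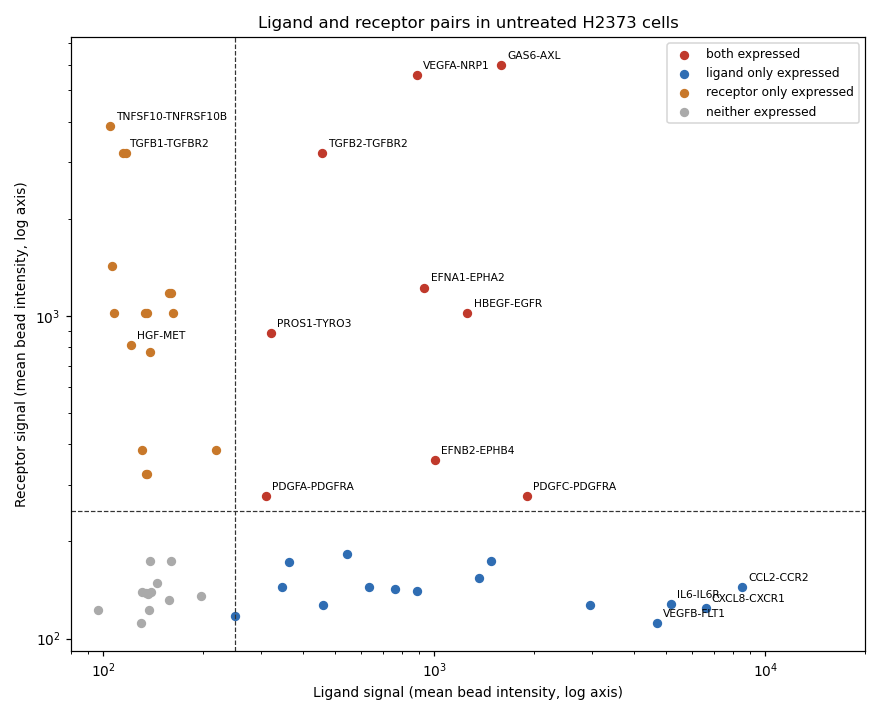
Signal of the ligand (horizontal, log axis, mean bead intensity) against that of its receptor (vertical, log axis, mean bead intensity) for 52 pairs on the untreated array, with dashed lines at the detection limit. The 9 pairs with both genes expressed lie at the upper right, with GAS6 and AXL (1588 and 5991) and VEGFA and NRP1 (884 and 5580) the highest by receptor. The brightest ligands, CCL2, CXCL8 and IL6, lie at the lower right, as the receptors chosen for their pairs were not detected.

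By position, the share of genes expressed was counted for the autosomes and chromosome X. It was highest on chromosome 16 (377 of its 759 genes, 49.7%) and lowest on chromosome X (251 of 743, 33.8%), and on chromosome 9, which holds the stretch described above, it was 44.8% (334 of 745).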

How the data were processed

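Biotinylated cRNA from total RNA of untreated H2373 cells was run on 1 array, an Illumina BeadChip. Per the labels, the authors made the signal intensities with BeadStudio 3.1.3.0. The deposited non-normalized table holds linear intensities, averages over the beads of a probe with no background subtracted, and the deposited detection p-value of each probe, whose steps imply 759 negative controls. A second deposited table of intensities, normalized by the authors, served as an alternative. The methods name a later version of the chip than the file header, and the annotation is that of the earlier version, so a gene name could be wrong where the versions differ.

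Of 48798 probes, 28093 had 1 gene symbol, 20692 none and 13 several, and 28054 were matched to RefSeq by gene ID. Genes were represented by the brightest probe, called at a detection p under 0.01, ranked by signal, and counted in 46 gene lists and 52 ligand and receptor pairs. No gene was tested against another, and no normalization was needed within 1 array. The number of arrays, not depth, limits the precision. Promoters came from RefSeq (GRCh38.p14). The genes named are the 20 brightest, the markers, the brightest expressed members of each list, all members of short lists and textbook members whatever their value, with some further members given as examples. Lists and members were chosen with earlier results of these data known. The alternatives were detection p under 0.05 or 0.001, every probe of a gene expressed, the mean over probes, all probes counted and the deposited normalized table. The call and ranking of genes and the promoter features were checked on simulated data. No simulated gene lay near the detection limit, so the check does not cover such genes, and the counts over lists, pairs and stretches were not part of it. Tools were matplotlib 3.10.9, scipy 1.17.1, pandas 2.3.3 and numpy 2.4.6 under Python 3.11.15.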

Additional observations from a re-analysis of the deposited data

Results flagged for a closer look

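Of the probes that the annotation ties to no gene or to several, 1331 were expressed at a detection p under 0.01, which is 6.43% of them, and the highest reached a signal of 59161. They were in no count of genes, and the genes they measure are not named here.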

How the results depend on the processing

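Over all genes, the count of 7745 expressed genes became 10246 at a detection p under 0.05, 6391 at a p under 0.001 and 5860 where every probe of a gene had to be expressed, and 11076 probes were expressed in all. Counts of list members within 1.5 times the main count are not repeated. With every probe required, the expressed members fell to 7 mesothelial, 5 tumour suppressor, 7 basement membrane, 3 other collagen, 3 hyaluronan, 5 integrin, 8 fatty acid synthesis, 1 EGF, 4 PDGF and VEGF and 9 HGF and AXL genes, to 1 hepatocyte marker and to 0 lung, neuroendocrine, endothelial and melanocyte markers. At a p under 0.05 they became 6 epithelial adhesion genes, 10 other collagen, 10 hyaluronan, 7 EGF, 7 FGF, 14 PDGF and VEGF and 19 Wnt genes, and 6 lung, 2 squamous, 5 neuroendocrine, 4 blood, 5 endothelial and 6 hepatocyte markers. At a p under 0.001 they became 2 EGF genes and 7 cytokines, with 1 lung, 0 neuroendocrine, 0 endothelial, 1 hepatocyte and 1 melanocyte marker. With the mean over probes, the top 10% held 0 blood markers, 3 integrins, 2 cholesterol genes and 3 cytokine receptors, and it shared 1672 of 1885 genes with the main ranking. With the deposited normalized table the top 10% was the same 1885 genes. A normalization that keeps the order of signals within 1 array gives this by construction, so it is no independent check. Fewer or more probes pass by construction in these settings, and other causes were not tested. A signal near the detection limit of about 249.2 cannot separate low from no expression, and with 1 array no spread between cultures was measured. No paired analysis was possible because there was 1 array and no replicate number.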

Other observations

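Gene families by symbol gave biology not described so far. Of 236 families of 10 genes or more, COMMD and EXOSC genes, of endosomal sorting and of the RNA exosome, were the 2 with every member expressed, and 22 families had none. By median percentile the highest after the ribosomal proteins were PSMB (10 of 11 expressed), catalytic-core subunits of the proteasome, NDUFB (8 of 10) and NDUFA (9 of 10), subunits of respiratory complex I, EEF (10 of 11), translation elongation factors, and CCT (9 of 10), the cytosolic chaperonin. Mitochondrial ribosomal proteins were expressed for 48 of 49 MRPL and 27 of 29 MRPS genes. The lowest were TMPRSS (0 of 14), membrane serine proteases, TAS (0 of 26), taste receptors, and PCDHB (1 of 19), protocadherins, and none of 75 KRTAP genes, of hair keratin-associated proteins, was expressed.

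Some of the brightest ranks rested on 1 probe. Of the 200 brightest genes, 111 had several probes, and for 14 of these the second probe was not detected. LAIR1, an inhibitory receptor of leukocytes, was at rank 3 with 58990 on 1 probe and 144 on the other, and CCR6, a chemokine receptor, had 28598, 158 and 127. CLEC2D had 55761, 2691 and 133, and CLUAP1, a cilium gene, had 54800.5 on its brightest probe and between 322 and 795 on the other 4. TMSB4X, which encodes thymosin beta 4, had 49596 and 152, so genes known to be abundant in many cells are among them too. In the top 10%, 158 of 789 genes with several probes had a second probe that was not expressed. Genes with 1 probe were expressed for 36.9% and genes with several for 49.8%. The cause of the disagreement between probes was not tested.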
